A study of Mus musculus with 6 samples.

Results

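The genes described here are 44 genes of the lysosome, the acidic compartment in which a cell breaks down proteins, sugars and lipids. They are 7 cysteine proteases, 4 other proteases and reductases, 14 glycosidases and sulfatases, 8 genes of lipid degradation and sterol export, and 11 membrane proteins and control genes. They were chosen by gene symbol, with earlier results of these data known. Of the 44, 43 had a named probe set on the array, and Cd63 was not analysed here. The 43 genes had 97 probe sets out of 34958 with 1 gene symbol, and each gene was read from its brightest, which left 18194 genes in all.

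The cells were A20, a B lymphoma line from BALB/c mice, so the results come from 1 transformed line. Messenger RNA was measured on 6 Affymetrix whole-genome mouse arrays, 1 for each condition. Cells were given TGF-β, a cytokine that arrests and kills many B cells, for 12 h or 24 h, with SP600125 or without it. SP600125 inhibits the JNK kinases and is known to reach other kinases too. The unstimulated cells, called 0 h here, had SP600125 for 24 h in one array and only DMSO, the solvent, in the other, and the arrays with TGF-β and no drug also had DMSO. SP600125 was present for 24 h at 0 h, for 12 h at 12 h and for 24 h at 24 h of TGF-β, so the drug pair at 12 h also differs from the others in how long the drug was present. The study asked which genes TGF-β induces and which of these inductions are lost with the inhibitor.

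Lysosomal enzymes are made in the endoplasmic reticulum, tagged with mannose 6-phosphate and carried to the lysosome, where proton pumps keep the lumen acidic. In B cells the same compartments cut antigen taken up by the B cell receptor into peptides for MHC class II. Cathepsin S trims the invariant chain there, and GILT, encoded by Ifi30, reduces the disulfide bonds of antigens. Many lysosomal genes are under the control of TFEB and TFE3, which bind the CLEAR element, a promoter motif built around the E-box CACGTG.

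Of the 6 arrays, the one with both TGF-β for 24 h and SP600125 differed from the rest in its control probes. The signal of 18S ribosomal RNA was 5878 there, and 507 to 882 elsewhere. The 3′/5′ ratio of actin was 1.89 there, and 1.25 to 1.51 elsewhere. Smad7, a feedback inhibitor that TGF-β induces, had signals of 121, 619 and 697 with SP600125, against 124, 485 and 525 without it, in the order of 0 h, 12 h and 24 h, the order used for all signals. All 7 measured B cell markers were above the floor of 74.2 on every array. Their summed signal was 27529 to 27954 with SP600125 and 33586 to 43803 without it, and 4 of the 7 fell with the drug. Of 8 myeloid markers, 3 to 4 were above the floor with SP600125 and 2 to 3 without it, with summed signals of 704 to 936 and 774 to 1108. The myeloid markers Csf1r, at 277 to 406, and Adgre1, at 172 to 497, were above the floor on all 6 arrays, Lyz2 and Mpo on some, and Itgam, Cd14, Marco and Fcgr1 on none. Of 5 T and NK cell markers and 5 fibroblast markers, at most 2 of each were above it on any array. In RNA from many cells, a smaller share of cells making a transcript and less of it in each cell cannot be told apart.

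Promoters of 40 of the 44 genes were found in RefSeq, on the mouse assembly GRCm38.p6, as windows from 250 bases before to 50 bases after the annotated start. The core of the CLEAR element, TCACGTGA, was present in the windows of 6 of these genes, or 15%, against 1.12% of 27025 genes with a window. The longer form of the element, with G before and C after the core, was in the window of 1 of them, Cln3. The E-box CACGTG, which every such element contains, was in 14 of the 40, or 35%, against 8.09% of all genes. Each motif reads the same on both strands. The genes are known lysosomal genes, and that class is known for CLEAR elements, so these shares are a description of the list. The 40 bases around each core motif follow, written 5′ to 3′ on the strand of the gene, with the motif in capitals, because they differ in the bases beside the same core.
Cln3, chr7:126583335-126583374, minus strand: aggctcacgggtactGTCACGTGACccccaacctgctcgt
Ctsa, chr2:164833744-164833783, plus strand: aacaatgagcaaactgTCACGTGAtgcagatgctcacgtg
Ctsa, chr2:164833761-164833800, plus strand: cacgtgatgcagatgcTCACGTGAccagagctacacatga
Ctsd, chr7:142387903-142387942, minus strand: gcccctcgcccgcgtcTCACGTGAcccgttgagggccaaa
Gla, chrX:134601177-134601216, minus strand: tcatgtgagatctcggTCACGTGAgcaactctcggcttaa
Gla, chrX:134601210-134601249, minus strand: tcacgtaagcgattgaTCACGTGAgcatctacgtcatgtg
Mcoln1, chr8:3500457-3500496, plus strand: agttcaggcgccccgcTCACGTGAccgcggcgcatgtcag
The Ifi30 window holds its core element far from the start, at position -197, and is given whole since Ifi30 was the gene of the 43 with the largest TGF-β effects at 12 h and at 24 h. The Lamp1 window is given whole because it holds 4 E-boxes within 61 bases of the start and no core element. Lamp1 passed no test, and neither did Cln3, Ctsa, Ctsd, Gla and Mcoln1, the other genes with a core element. A link between motif and effect was not tested.
Ifi30, chr8:70766614-70766913, minus strand: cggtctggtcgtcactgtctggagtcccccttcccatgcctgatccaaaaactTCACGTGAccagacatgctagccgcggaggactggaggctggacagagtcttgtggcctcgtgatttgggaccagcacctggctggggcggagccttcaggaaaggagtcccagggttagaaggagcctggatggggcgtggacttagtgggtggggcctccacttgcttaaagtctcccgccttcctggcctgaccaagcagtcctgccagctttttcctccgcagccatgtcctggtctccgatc
Lamp1, chr8:13158911-13159210, plus strand: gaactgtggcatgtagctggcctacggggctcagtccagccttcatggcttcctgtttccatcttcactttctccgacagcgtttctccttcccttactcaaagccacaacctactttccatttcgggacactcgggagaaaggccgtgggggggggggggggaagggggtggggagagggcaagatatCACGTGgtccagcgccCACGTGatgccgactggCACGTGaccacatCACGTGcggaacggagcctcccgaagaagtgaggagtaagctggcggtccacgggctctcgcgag

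Most of the 43 genes were strongly expressed. The median of their mean signals was 1050, against 129 for all genes, and 42 of the 43 were above the floor on all 6 arrays. Ctsz, cathepsin Z, was the brightest gene at a mean signal of 10500, and Arsb, arylsulfatase B, the dimmest at 60.7. A signal also depends on the probes, so signals of different genes are not compared further.

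TGF-β raised 4 of the 43 lysosomal genes at 12 h and 9 at 24 h, and lowered 1 at 24 h. Ctsh, Ifi30 and Laptm5 rose at both times, Ids rose at 12 h, and Man2b1, Arsa, Npc2, Smpd1, Cd68 and Grn rose at 24 h, while Gusb fell. In an additive limma model on all 6 arrays, which averages each effect over the drug settings, 9.3% of the 43 were risen and 0% fallen at 12 h, against 2.74% and 2.5% of 11698 genes tested. At 24 h 20.9% of the 43 were risen and 2.33% fallen, against 9.16% and 7.59%. Testing only the 9120 genes above the floor on all arrays called 1178 at 12 h and 2532 at 24 h. Of the 42 lysosomal genes among the 9120, 7 were risen and 0 fallen at 12 h, 13 and 2 at 24 h. The part of brightness in these shares was not tested. The median effect of the 43 genes was 0.25 at 12 h and 0.31 at 24 h on the log2 scale, against 0.02 and 0.07 for all genes. Of the 43 effects, 35 were above 0 at 12 h and 38 at 24 h. Calls were made at a Benjamini-Hochberg adjusted p under 0.05, and errors are standard errors.

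SP600125 lowered 6 of the 43 genes and raised 2. Averaged over the 3 TGF-β states, Ctsc, Ctsh, Ifi30, Ids, Laptm5 and Cd68 fell, and Tpp1 and Npc2 rose. That is 14% fallen and 4.65% risen of the 43, against 3.76% and 4.15% of all genes. Testing only the 9120 genes above the floor on all arrays called 1472. Of the 42 lysosomal genes among the 9120, 8 were fallen and 3 risen. The median effect was -0.11, against 0.04 for all genes, with 20 effects above 0 and 23 below. That median was 0.03 without either 24 h array of TGF-β. Both fits give the same drug estimate, since it then comes from the 0 h and 12 h pairs alone. The sign of the median thus rests on the 24 h pair. The B cell markers Cd79a, Ms4a1, Cd22 and Ebf1 fell with the drug as well. Cd79b, Pax5 and Blk were not called, at drug effects of 0.05, -0.2 and 0.42. The part of the B cell markers in these results was not tested. In all, 13 genes gave 22 calls in these 3 terms, and 30 genes gave none. All 22 calls had the same direction in each pair of arrays behind them, 2 pairs for a TGF-β effect and 3 for the drug. The model averages these same pairs and takes their disagreement as error. Such agreement was thus largely set by the calling and is no separate check. Without the array that differed in its control probes, all 22 effects kept their sign and none moved by over 1.5 times, but 0 of the 22 passed, at adjusted p between 0.137 and 0.275 in a fit with 1 residual degree of freedom. Leaving out any 1 of the 6 arrays left 0 risen at 12 h, 0 to 4 risen and 0 fallen at 24 h, and 0 risen and 0 to 1 fallen with the drug. The 12 h effects of TGF-β come from the 0 h and 12 h arrays, so leaving out a 24 h array could not change them. In the same way, leaving out a 12 h array could not change the 24 h effects. Of the 22 effects, 2 moved by over 1.5 times when some array was left out. The 24 h effect of Cd68 was 0.72 without the array of TGF-β alone for 24 h, in place of 1.13. That of Grn was 0.38 without the same array and 0.43 without the untreated array, in place of 0.74.

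**Figure D1:**
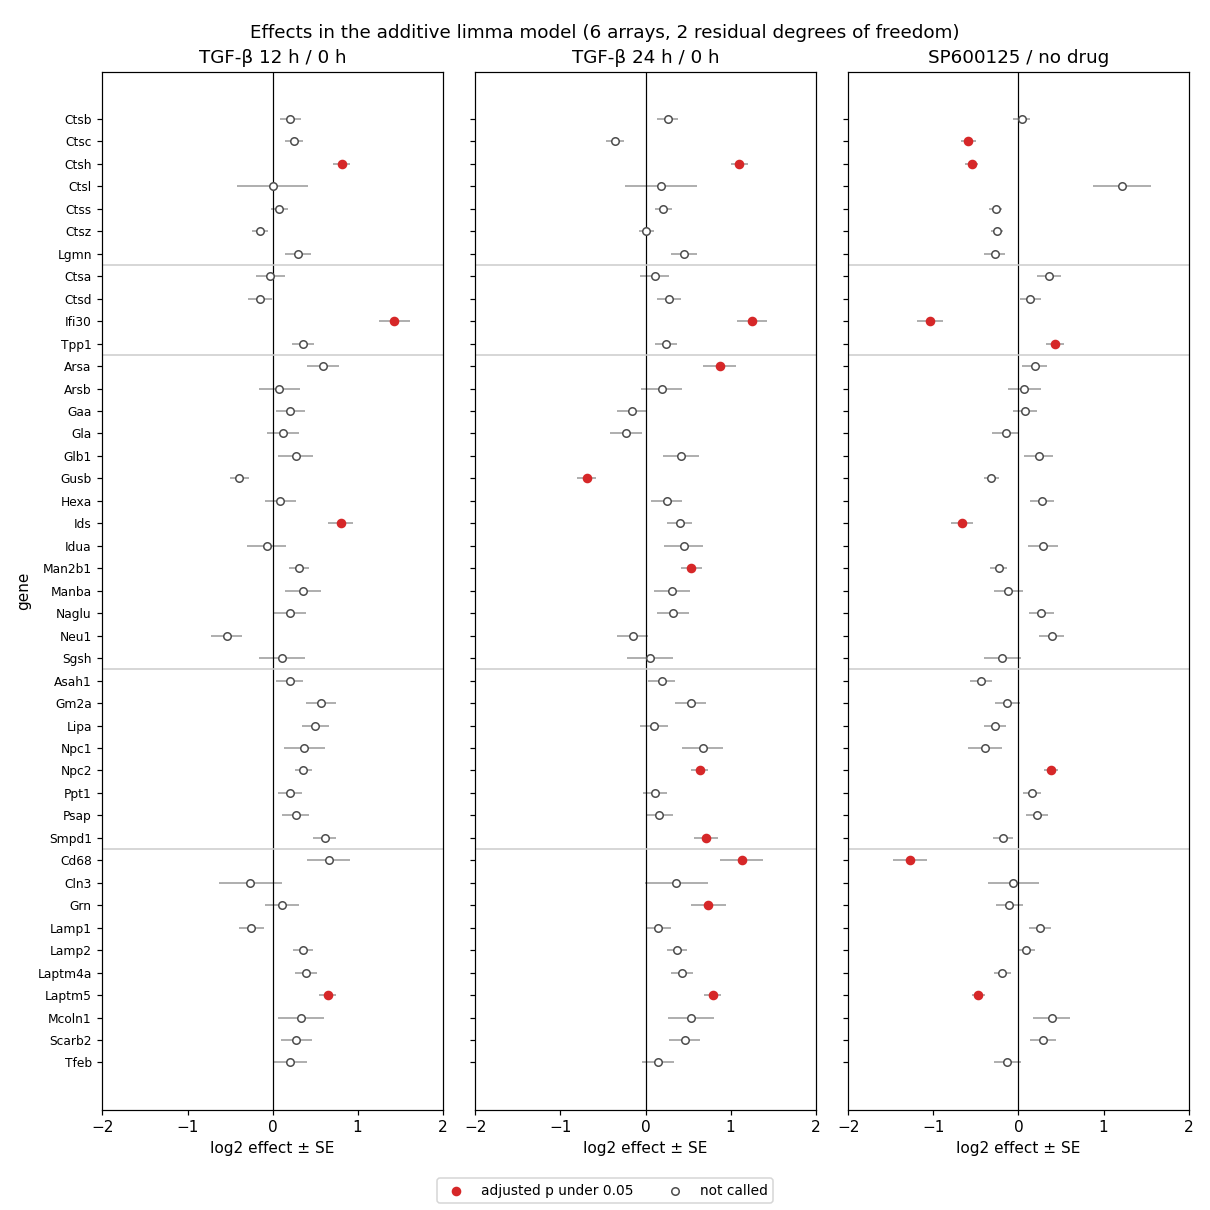
Log2 effects with standard errors of the 43 lysosomal genes in the additive limma model, for TGF-β at 12 h, TGF-β at 24 h and SP600125, with genes grouped by role and filled red points for adjusted p under 0.05. In the third panel Cd68 lies farthest to the left at -1.27 and Ctsl farthest to the right at 1.22, and Ctsl is not called.

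Among the other proteases and reductases, Ifi30 had the largest TGF-β effects of the list. Its signals were 2945, 10374 and 6963 with SP600125, against 7207, 14933 and 17359.9 without it. Every TGF-β signal was above the unstimulated one of the same drug setting, and every signal with drug was below its partner without drug. The log2 effects of TGF-β on Ifi30 were 1.43 ± 0.18 for 12 h and 1.25 ± 0.18 for 24 h, with adjusted p of 0.00732 and 0.00485 in limma. With SP600125 it fell by 1.04 ± 0.15, at an adjusted p of 0.00711. The 12 h fold over 0 h was 3.52 with the drug and 2.07 without it, and the 24 h fold was 2.36 and 2.41. Tpp1, tripeptidyl peptidase 1, had signals of 2719.9, 3116 and 2759.8 with SP600125, against 1689, 2417 and 2329.7 without it, and its rise with SP600125 of 0.43 ± 0.11 lay at the edge of the threshold, at an adjusted p that rounds to 0.05. A second Tpp1 probe set gave a drug effect of 0.79. Ctsa and Ctsd, cathepsins A and D, passed no test, with effects between -0.15 and 0.36.

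Of the 7 cysteine proteases, Ctsh alone rose with TGF-β at either time, and Ctsc and Ctsh fell with SP600125. Ctsh, cathepsin H, an aminopeptidase, had signals of 4137, 7780.5 and 9181 with SP600125, against 6481, 10647 and 13497 without it at the 3 times. The 24 h signals were the highest of each setting, and the groups with and without drug overlapped. Its effects were 0.81 ± 0.10 for 12 h, 1.10 ± 0.10 for 24 h and -0.55 ± 0.08 for the drug, and a second probe set gave 0.96, 1.16 and -0.38. Ctsc, cathepsin C, which activates granule serine proteases, had signals of 2571, 2903 and 2016 with SP600125, against 3734, 4708 and 2899 without it. It was lower with the drug at each time and fell by 0.59 ± 0.09, while its TGF-β effects were 0.25 ± 0.11 at 12 h and -0.36 ± 0.11 at 24 h, neither of them called. With the mean of its probe sets, of which the others lie at or near the floor, the drug effect of Ctsc was -0.19, at an adjusted p of 0.384. Ctss and Ctsz were lower with drug in 3 of 3 pairs, at -0.27 ± 0.08 and -0.25 ± 0.07, and did not pass, at adjusted p of 0.0792 and 0.0853.

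Ctsl, cathepsin L, had the largest single difference of the list and no call. Its signals were 562, 327 and 338 with SP600125, against 110.1, 189 and 234 without it. With SP600125 it was 5.11-fold higher at 0 h, 1.73-fold at 12 h and 1.44-fold at 24 h. TGF-β was accompanied by a higher signal without drug, by 1.72-fold and 2.13-fold, and by a lower one with it, at log2 differences of -0.78 and -0.74. The drug effect was 1.22 ± 0.34, at an adjusted p of 0.0691. In a model with a TGF-β by SP600125 term, which takes 12 h and 24 h as repeats, its interaction was -1.69 ± 0.40, at an unadjusted p of 0.00863 and an adjusted p of 0.999. It was the only one of the 43 at an unadjusted p under 0.05, against 2.68% of all genes. No gene of the 11698 was called for the interaction by limma, 0%, and 314 genes had an unadjusted p under 0.05.

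**Figure D2:**
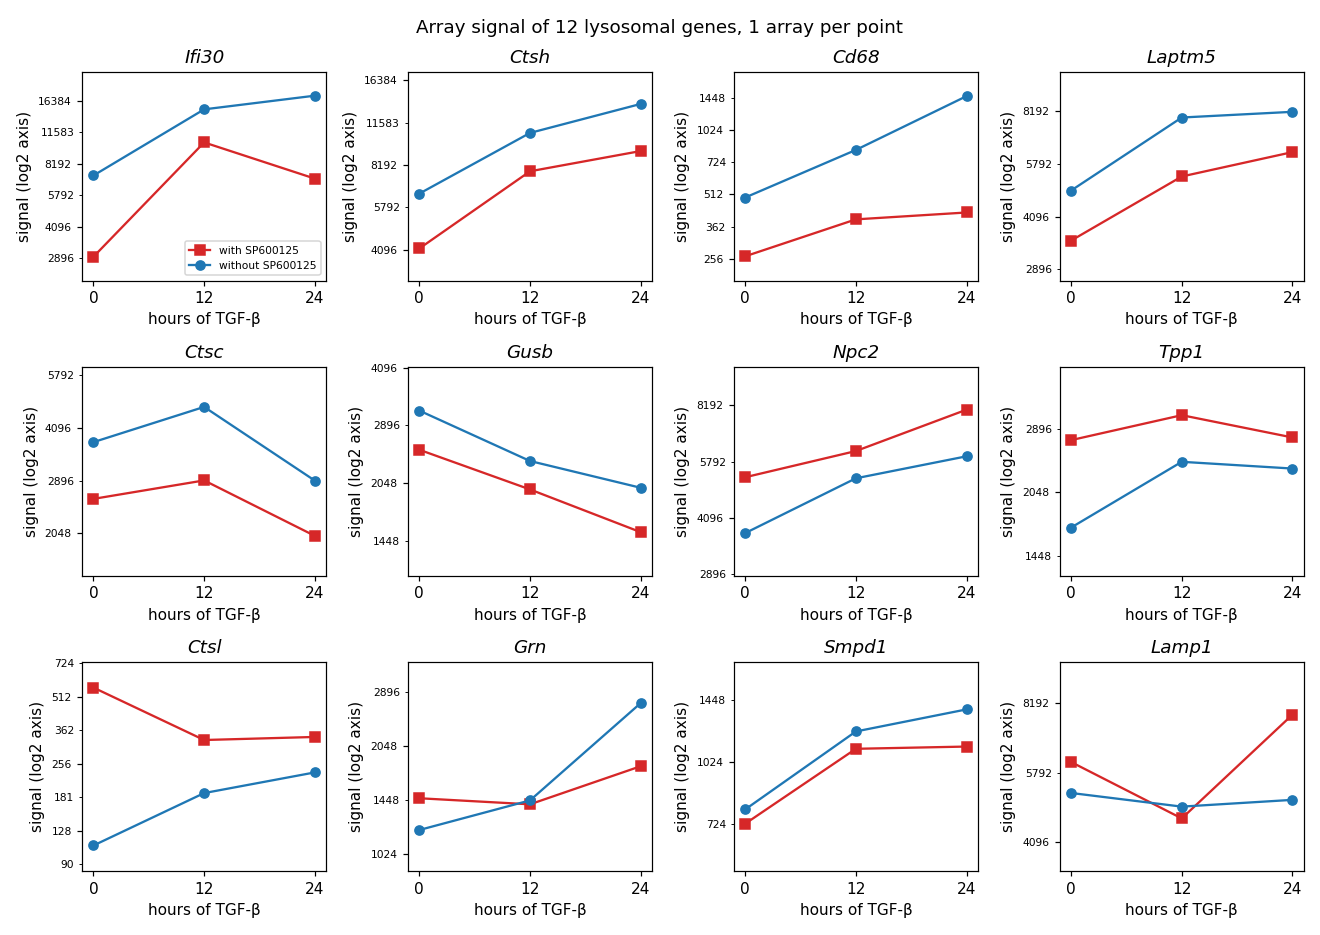
Array signals of 12 lysosomal genes on a log2 axis against hours of TGF-β, 1 array per point, with red squares for SP600125 and blue circles for no drug. The red line lies below the blue one at all 3 times for Ifi30, Ctsh, Cd68, Laptm5, Ctsc and Gusb and above it for Npc2, Tpp1 and Ctsl.

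Of the 14 glycosidases and sulfatases, 1 rose at 12 h, 2 rose and 1 fell at 24 h, and 1 fell with SP600125. The shares of all genes were 2.74% risen at 12 h, 9.16% risen and 7.59% fallen at 24 h, and 3.76% fallen with the drug. These counts on few genes lie near the background. Of the 14 effects, 11 were above 0 at 12 h and 10 at 24 h, against 52.9% and 56.5% of all genes. Ids, iduronate 2-sulfatase, rose at 12 h and fell with SP600125, Man2b1, the lysosomal alpha-mannosidase, and Arsa, arylsulfatase A, rose at 24 h, and Gusb, beta-glucuronidase, fell at 24 h. The other 10 of the 14 gave no call. Ids had signals of 1039, 1854 and 1175 with SP600125, against 1502, 2546 and 2325 without it, and its effects were 0.80 ± 0.15 at 12 h and -0.66 ± 0.13 with drug, at adjusted p of 0.0287 and 0.0194. Among 3 dimmer Ids probe sets the 12 h effects were 0.45, 0.05 and 0.48 and the drug effects -0.48, 0.08 and -0.64. With the mean of probe sets both Ids calls were lost, at 0.30 and -0.28, with adjusted p of 0.332 and 0.251. That mean also takes in Ids probe sets that lay at the floor on every array and so show no change. Gusb had signals of 2501, 1969 and 1523 with SP600125, against 3166, 2337 and 1989 without it. It fell by 0.69 ± 0.11 at 24 h, at an adjusted p of 0.00664, and a second probe set gave -1.28. Arsa had signals of 518, 694 and 845 with SP600125, against 389, 658 and 795 without it, and rose by 0.87 ± 0.19 at 24 h. Man2b1 had signals of 2199.5, 2856 and 2928 with SP600125, against 2508, 2972 and 3996 without it, and rose by 0.54 ± 0.12. The second Man2b1 probe set went the other way, at -0.44, and the mean of probe sets gave 0.05, at an adjusted p of 0.932.

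All 8 genes of lipid degradation and sterol export had effects above 0 at both times of TGF-β, where 52.9% of all genes did at 12 h and 56.5% at 24 h. None of them was called at 12 h and 2 rose at 24 h, against 9.16% of all genes. Npc2, which carries cholesterol in the lysosome lumen, had signals of 5261, 6181 and 7973 with SP600125, against 3731, 5227 and 5984 without it. Its signal was higher with TGF-β and higher with the drug in every pair, and it rose by 0.64 ± 0.10 at 24 h and 0.38 ± 0.08 with SP600125. Smpd1, acid sphingomyelinase, had signals of 727, 1103 and 1116 with SP600125, against 787, 1214 and 1373 without it. It rose by 0.71 ± 0.14 at 24 h, and its 12 h effect of 0.61 ± 0.14 lay just outside the threshold, at an adjusted p of 0.0506. The second Smpd1 probe set gave 0.37 and 0.21. The second Npc2 probe set gave 0.52 at 24 h and 0.25 with the drug, and the other Npc2 probe sets lay at or near the floor. With the mean of probe sets, these included, the 24 h effects of Npc2 and Smpd1 were 0.35 and 0.46, at adjusted p of 0.121 and 0.0916. Asah1, acid ceramidase, was lower with SP600125 by -0.44 ± 0.13, at an adjusted p of 0.0843. Lipa, Npc1, Psap, Gm2a and Ppt1 gave no call.

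Among the membrane proteins and control genes, Laptm5, Cd68 and Grn rose with TGF-β and Laptm5 and Cd68 fell with SP600125. Cd68, a heavily glycosylated protein of late endosomes that is used as a macrophage marker, had signals of 262, 391 and 421 with SP600125, against 495, 828 and 1482 without it. The 24 h signal without drug was the highest by far, and all 3 signals with drug were below all 3 without it. Cd68 rose by 1.13 ± 0.25 at 24 h and fell by 1.27 ± 0.20 with SP600125, at adjusted p of 0.0199 and 0.0109. Of the myeloid markers, Adgre1, which encodes a macrophage surface receptor, had signals of 195, 172 and 256 with SP600125, against 271, 357 and 497 without it. Adgre1 too fell with the drug, by 0.83 ± 0.21, at an adjusted p in limma that rounds to 0.05. Csf1r, Lyz2 and Mpo had drug effects of 0.11, 0.18 and 0.03, none of them called. The part of Adgre1 in the Cd68 result was not tested.

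Laptm5, a lysosomal protein of blood cells that lowers B cell receptor levels, had signals of 3497, 5327 and 6252 with SP600125, against 4857, 7847 and 8146 without it. It rose by 0.65 ± 0.10 and 0.79 ± 0.10 and fell by 0.47 ± 0.08 with drug. Its 4 dimmer probe sets gave 0.20, 0.44, -1.16 and 0.05 at 12 h, 0.83, 0.53, -0.35 and 0.45 at 24 h, and -0.24, -0.73, -0.59 and 0.21 with drug. With the mean of probe sets all 3 Laptm5 calls were lost, at 0.04, 0.45 and -0.36, with adjusted p of 0.925, 0.0906 and 0.137. The brightest Laptm5 probe set, like that of Grn, is of a design that can also bind related transcripts. Grn, progranulin, had signals of 1465, 1409 and 1799 with SP600125, against 1195, 1445 and 2698 without it. It rose by 0.74 ± 0.20 at 24 h, where the pair with drug differed by 1.23-fold and the pair without it by 2.26-fold, and 2 other probe sets gave 0.50 and 0.62. Lamp1 had signals of 6104, 4604 and 7734 with SP600125, against 5228, 4884 and 5052 without it, with no call in any term. Lamp2, Laptm4a, Scarb2 and the calcium channel gene Mcoln1 had TGF-β effects between 0.28 and 0.53 at the 2 times, none of them called. Dimmer probe sets of Lamp2, Scarb2 and Mcoln1 gave TGF-β effects from 0.06, for Lamp2 at 12 h, to 0.93, for Scarb2 at 24 h. Tfeb, which encodes the factor that binds CLEAR elements, had signals of 451, 576 and 538 with SP600125, against 556, 582 and 572 without it, and its effects of 0.21 ± 0.19, 0.15 ± 0.19 and -0.13 ± 0.16 gave no call.

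The single pairs of arrays have no replicate check. With SP600125, TGF-β was accompanied by a median log2 difference of the 43 genes of 0.18 at 12 h and 0.21 at 24 h, against 0.33 and 0.46 without the drug. The medians of all genes in these 4 pairs lay between 0 and 0.05. At least 2-fold higher were 1 and 2 of the 43 genes with the drug, against 2.51% and 4.54% of all genes, and 1 and 7 without it, against 3.32% and 5.57%. Ifi30 was among them in all 4 pairs, and Ctsh was the other gene at 24 h with drug. None was 2-fold lower, against 1.31%, 1.96%, 1.49% and 1.95% of all genes. The pairs with and without drug at 1 time share no array, but the difference between their medians was not tested. For SP600125 against no drug the medians were 0.02 at 0 h, -0.08 at 12 h and -0.09 at 24 h, against 0.02, 0.01 and 0.04 for all genes. In these pairs 1, 0 and 0 of the 43 were at least 2-fold higher, the 1 being Ctsl, against 3.2%, 1.81% and 3.14% of all genes. At least 2-fold lower were Ifi30 at 0 h, Cd68 at 12 h, and Ifi30 and Cd68 at 24 h, that is 1, 1 and 2 of the 43, against 1.32%, 1.12% and 1.93%.

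**Figure D3:**
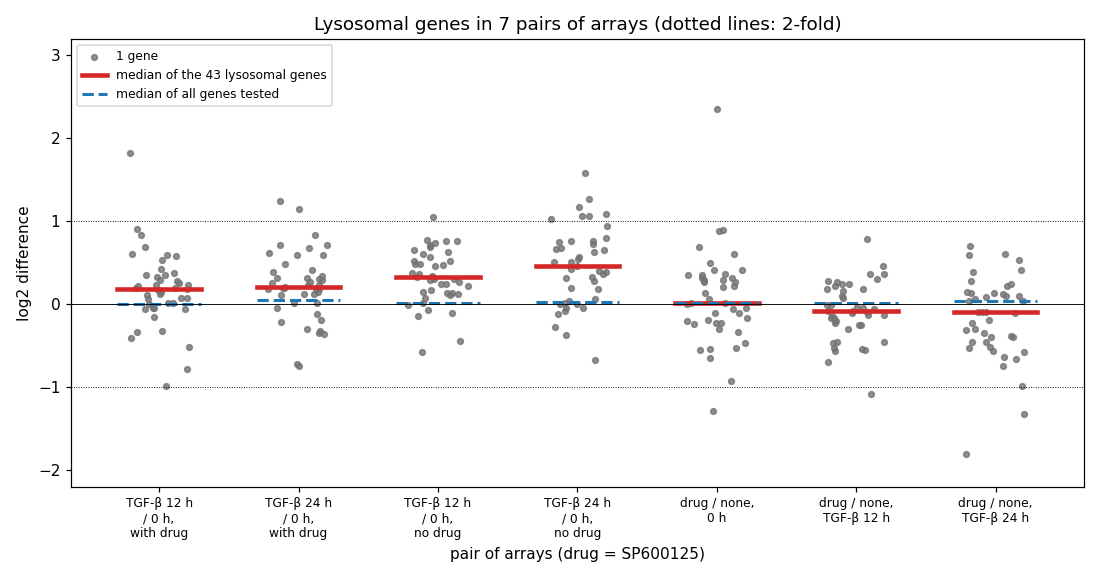
Log2 differences of the 43 lysosomal genes in 7 pairs of arrays, 1 point per gene, with red bars for their median and dashed blue bars for the median of all genes tested. The red bars lie above the blue ones in the 4 TGF-β pairs, at 0.18 and 0.21 with drug and 0.33 and 0.46 without it, and at or below them in the 3 drug pairs.

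The study's own rule calls a gene inducible when it is over 2-fold higher with TGF-β at 12 h or 24 h, and reduced when SP600125 removes over 75% of the induction. Here the induction was the increase in signal over the unstimulated array of the same drug setting. By this rule 7 of the 43 genes were inducible, 16.3%, against 6.36% of all genes. All 7 reached 2-fold in the 24 h pair, in which 3 of the 43 did so with median scaling and 4 with quantile normalization. They were Ctsh, Ctsl, Ifi30, Arsa, Cd68, Cln3 and Grn, and only Ifi30 reached 2-fold already at 12 h. Of these 7, Ctsl, Cd68, Cln3 and Grn were reduced, against 23.8% of the 757 inducible genes. The 24 h increase of Cd68 was 159 with SP600125 and 986 without it, which is 83.9% smaller. For Grn it was 334 with the drug and 1502 without it, 77.8% smaller and close to the limit. Ctsl and Cln3 were lower, not higher, with TGF-β at 24 h in the presence of the drug, at -225 and -32.4 signal units. Cln3, a lysosomal membrane protein mutated in a childhood neurodegeneration, was dim, with signals of 147, 74.4 and 114 with SP600125, against 78.5, 109 and 165 without it. A second Cln3 probe set, above the floor on the untreated array only, went the other way, at -0.53 at both times without drug. Ifi30 kept most of its 12 h increase, 3.83% smaller with drug, and lost 60.4% at 24 h, Ctsh lost 28.1% and Arsa 19.4% at 24 h. All 24 h increases with drug rest on the array that differed in its control probes.

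**Figure D4:**
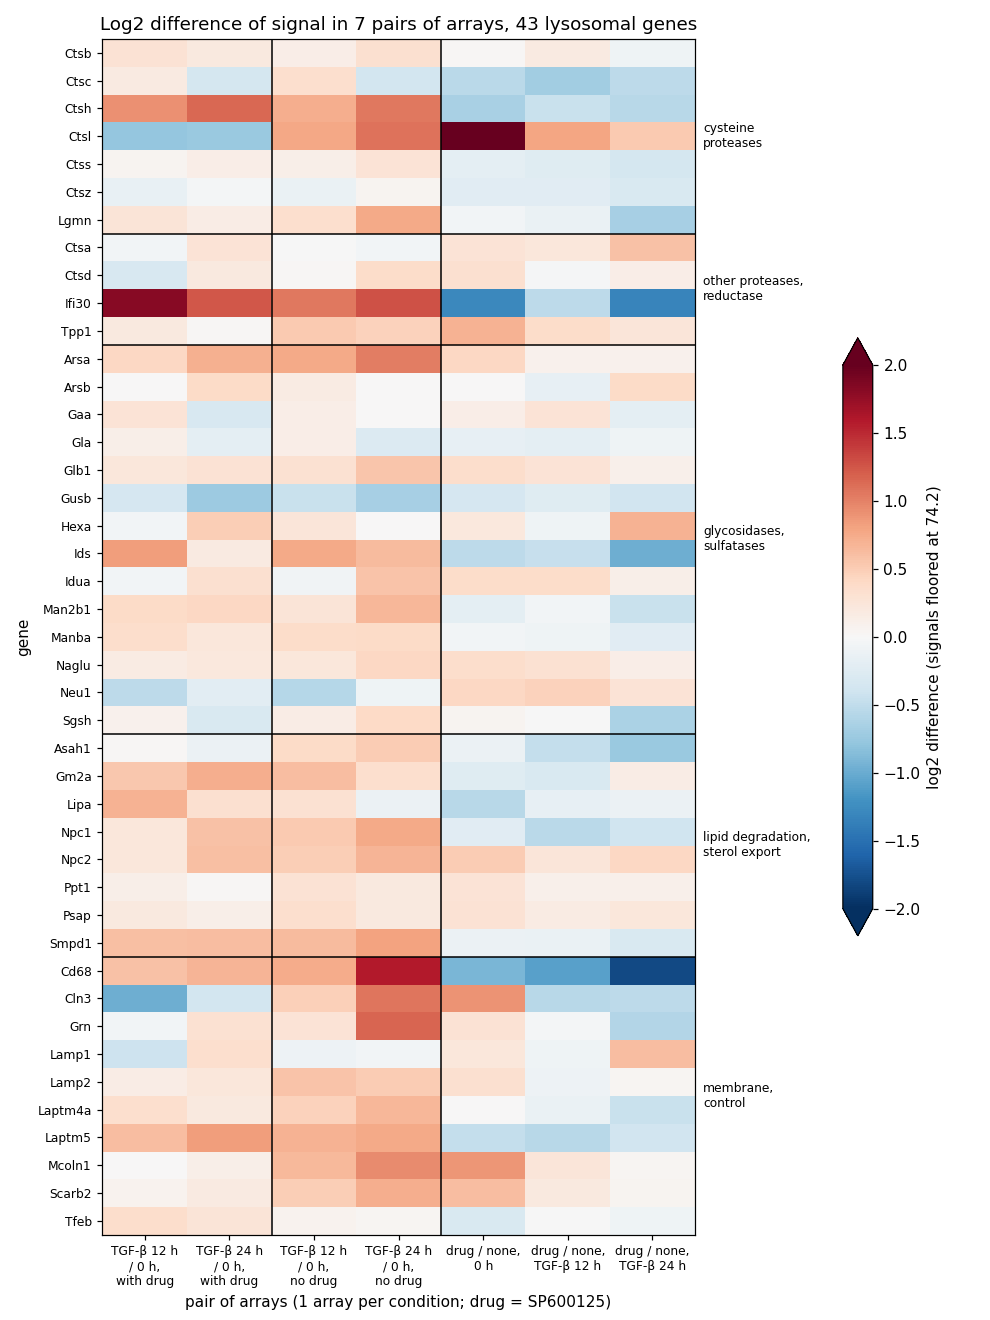
Log2 differences of signal for the 43 lysosomal genes, in rows by role, and 7 pairs of arrays, in columns, red for higher and blue for lower, with signals floored at 74.2. The Ctsl row is blue in the TGF-β columns with drug and red in those without it, and the Cd68 row reaches -1.81 in the last column.

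Genes with and without an E-box in the promoter window were set side by side. Among the lysosomal genes, the median drug effect was 0.17 for the 14 with CACGTG and -0.13 for 25 without it, while among all genes both medians were 0.04. The median 12 h effects were 0.16 with CACGTG and 0.28 without it, and the median 24 h effects 0.30 and 0.31. For the 6 with the core element the median drug effect was 0.04, against -0.11 for 33 without it. Their median TGF-β effects were 0.05 at 12 h and 0.32 at 24 h, against 0.27 and 0.31 without the core element. These are values of a chosen list with no test.

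Other parts of the lysosomal system were read from further lists. The share of all genes tested that rose was 2.74% at 12 h, 9.16% at 24 h and 4.15% with the drug, and the share that fell was 2.5%, 7.59% and 3.76%. The V-ATPase pumps protons into the lysosome. At 24 h 5 of its 16 measured genes rose, against 9.16% of all genes, and at 12 h 0 rose, against 2.74%, though 6 had an unadjusted p under 0.05 there. The V-ATPase median at 24 h was 0.23, against 0.07 for all genes. Atp6v0d1 rose by 1.13 ± 0.12, Atp6v1d by 0.85 ± 0.17 and Tcirg1 by 0.66 ± 0.17, all at 24 h, and Atp6v0a1 fell with SP600125, at -1.01 ± 0.20. Of 10 genes for mannose 6-phosphate sorting, Gnptab, which makes the tag, rose at both times, by 0.84 ± 0.14 and 0.49 ± 0.14, Sumf1, which activates sulfatases, rose at 24 h, and Gga2, a sorting adaptor, fell with drug, by 0.56 ± 0.11. Only 3 of 7 measured protease inhibitors were bright enough to be tested, and all 3 rose at 24 h, against 9.16% of all genes, which is a count on very few genes. Cstb, cystatin B, had signals of 4423, 7477 and 8056 with SP600125, against 3921, 6408 and 7837 without it, and rose by 0.73 ± 0.10 at 12 h and 0.93 ± 0.10 at 24 h. Cst3, cystatin C, rose by 0.68 ± 0.10 and 0.67 ± 0.10. Serpinb6a rose by 1.16 ± 0.25 at 24 h and by 1.18 ± 0.20 with SP600125.

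Of 22 tested further hydrolases, Pld3, a lysosomal nuclease, rose by 0.86 ± 0.18 at 12 h and 1.19 ± 0.18 at 24 h, Hgsnat and Fuca1 rose at 24 h, and Dpp7 rose with SP600125, by 1.11 ± 0.21. Of 22 transport and membrane genes, 1 was risen and 1 fallen at 12 h, and 3 were risen and 1 fallen at 24 h. Beside the all-gene shares of 2.74% risen and 2.5% fallen for 12 h, and 9.16% risen and 7.59% fallen for 24 h, these counts lie near the background. The largest effects were in Slc15a3, a lysosomal carrier of histidine and peptides, and Mcoln2, a channel related to Mcoln1. Slc15a3 had signals of 58.7, 419 and 392 with SP600125, against 183, 631 and 572 without it, and rose by 2.14 ± 0.27 at 12 h and 2.02 ± 0.27 at 24 h. Mcoln2 had signals of 1073, 362 and 337 with SP600125, against 677, 281 and 278 without it, and fell by 1.42 ± 0.21 and 1.48 ± 0.21. Of 14 tested genes of MiT/TFE and mTORC1 control, Fnip2 fell at both times, by 1.47 ± 0.27 and 1.12 ± 0.27, Lamtor3 fell at 24 h and Tfe3 rose at 24 h, by 0.66 ± 0.16.

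Autophagy delivers cell contents to the lysosome, and 22 of its genes were tested. With SP600125 6 of them rose and 0 fell, where 4.15% and 3.76% of all genes did, and their median was 0.19 against 0.04. For TGF-β at 24 h the counts were also 6 and 0, where 9.16% and 7.59% of all genes were called, with a median of 0.27 against 0.07. Map1lc3a, an LC3 protein of the autophagosome membrane, had signals of 625, 648 and 1729 with SP600125, against 278, 397 and 794 without it, and rose by 1.49 ± 0.19 at 24 h and 1.0 ± 0.16 with drug. Ulk2, a kinase that starts autophagy, rose with drug by 1.01 ± 0.16. Atg12 rose by 1.07 ± 0.19 at 24 h and 0.66 ± 0.16 with drug, and Gabarap rose by 0.50 ± 0.11 at 12 h and 0.91 ± 0.11 at 24 h.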

How the data were processed

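Affymetrix Mouse430_2 arrays were hybridised with RNA of A20 cells, 1 array for each of 6 conditions, grouped by the sample titles. The values as deposited are linear intensity values, called signals, 1 for each of 45101 probe sets and array, made by the authors with GCOS 1.2, per the submitters' processing notes, with settings not given in the sources used here. The 2% trimmed mean was 500.0 on each array. Array medians lay between 69.3 and 80.9, a ratio of 1.17, under the limit of 1.2 for rescaling, so signals were used as deposited. In the platform annotation 34958 probe sets had 1 gene symbol, 932 several and 9211 none. A gene was its brightest probe set by mean log2. Signals under the 50th percentile, 74.2, were set to it before log2, which understates changes of dim genes. Genes above it on at least 2 arrays, 11698, were tested with limma 3.58.1 in R 4.3.3, with an intensity trend. The additive model (TGF-β state and drug) left 2 residual degrees of freedom plus a prior of 6.09, the interaction model 2 plus 2.84. Their error is the departure of single arrays from the model, so p-values reflect no more than the spread among these 6 arrays, which may be technical, and a true interaction counts as error in the additive model. The procedure was also run on simulated data with drug effects, independent noise and no interaction. That run does not cover a true interaction or an array that differs from the rest. "Rose" and "fell" refer to limma calls, "higher" and "lower" to values.

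All 44 listed genes are accounted for, with array signals for genes called in any term and for those at least 2-fold in a pair. From the further lists at most 3 called genes per list and term are named, by size of effect. The genes and lists were chosen with earlier results of these data known. The number of arrays limits the precision. Alternatives were another scaling, quantile normalization, the mean of a gene's probe sets, another floor or filter, no intensity trend, and leaving out each array.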

Additional observations from a re-analysis of the deposited data

How the results depend on the processing

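No paired analysis was possible because each condition had 1 array and the labels carry no replicate numbers that tie arrays together. Scaling to equal medians moved the median 24 h effect of all genes by 0.11, to -0.04, and that of the lysosomal genes to 0.18, and their 12 h and 24 h medians stayed above 0 under both other scalings. Counts of lysosomal genes called changed more. For TGF-β at 12 h, 4 risen became 1 with probe sets averaged, 0 without the filter on low values, 7 with a signal above the floor on all 6 arrays and 0 without the intensity trend, and all genes called, 612, became 86, 2, 1178 and 20. For 24 h, 9 risen became 4 with the mean of probe sets, 0 without the filter and 3 without the trend, and all genes called, 1960, became 964, 3 and 570. Above the floor on all arrays, 13 were risen at 24 h, with 2532 of all genes called. The 1 fallen became 2 with median scaling, 0 without the filter, 2 above the floor on all arrays and 0 without the trend. For SP600125, 2 risen became 0 with median scaling, 0 with the mean of probe sets, 1 with the floor at the 25th percentile, 0 without the filter and 0 without the trend. The 6 fallen became 0 with the mean of probe sets, 0 without the filter and 0 without the trend, and all genes called, 925, became 175, 0, 1472 (above the floor on all arrays) and 94. With median scaling 9 were fallen with the drug, and above the floor on all arrays 3 were risen and 8 fallen. Where limma called 0 of the 43 for the drug, 15 had an unadjusted p under 0.05 with the mean of probe sets, 14 without the filter and 14 without the trend. The median drug effect became -0.19 with median scaling and -0.04 with the mean of probe sets. Without the filter 395 genes, none of the 43, were called for the interaction.

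Leaving out each array in turn left 1 residual degree of freedom. Genes risen at 12 h were then 0 in each case, with 7 to 16 of the 43 at an unadjusted p under 0.05, and all genes called 0 to 59. At 24 h they were 0 to 4 risen, 0 to 0 fallen, and 0 to 447 of all genes. For the drug they were 0 to 0 risen, 0 to 1 fallen and 0 to 133 of all genes, with 12 to 14 of the 43 at an unadjusted p under 0.05. The median drug effect ranged from -0.08 to 0.03, and was 0.03 without either 24 h array of TGF-β. Leaving out either array of a drug pair gives the same drug estimate, so that 0.03 is a single value. The interaction could not be estimated without the untreated or the SP600125 array. In single pairs without drug, 7 genes at the 2-fold limit at 24 h were 3 with median scaling and 4 with quantile normalization, and at 12 h 1 became 0 with median scaling. With drug, those 2-fold higher at 24 h, 2, became 1 with median scaling, and at 12 h 1 became 2 with the mean of probe sets or the lower floor. Those 2-fold lower with drug, 0 in both, became 1 at 12 h with median scaling or quantile normalization and 1 at 24 h with the mean of probe sets. With the lower floor, 2 in place of 1 were 2-fold lower with drug at 0 h. The cause was not tested for any of these, beyond the fewer arrays in the fits that leave one out.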
